A study of Gallus gallus with 14 samples.

Results

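Wild-type DT40 cells grown with doxycycline (+DOX) were compared with DT40 cells grown without it (-DOX) on 4 of the 14 EST arrays of the series. The 4 arrays are every array whose channels both carry DT40 RNA by the labels: culture A and culture B, each with +DOX RNA in Cy3 and -DOX RNA in Cy5 on one array and the dyes exchanged on the other. The array titles name only -DOX, so the contents were taken from the label of each channel. Neither the labels nor the microarray methods give the dose of DOX or the hours of exposure for these RNAs. The cells were kept in RPMI 1640 with foetal calf serum and a varied level of chicken serum, which is not given for these RNAs. The other arrays hold DKO-R and DKO-S with and without DOX, 4 arrays each, and 2 arrays of DKO-R against DKO-S. DKO-R and DKO-S are DT40 lines without their own clathrin heavy chain genes, in which a Tet-Off transgene supplies clathrin and DOX switches it off, and each is a single line.

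DT40 is a line of chicken B lymphoma cells that carries a rearranged immunoglobulin gene and is widely used for gene targeting. In a Tet-Off line, a tetracycline-controlled activator drives the transgene until doxycycline binds it and releases it from the promoter. Doxycycline is also a tetracycline antibiotic, which is known to bind the mitochondrial ribosome and to chelate metal ions. DT40 has intact clathrin genes and no Tet-Off transgene, so the comparison asks what the drug itself does to the RNA levels on these arrays.

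No clone passed the test for a difference between DT40 +DOX and DT40 -DOX. Each value was the log2 ratio of +DOX over -DOX, centred on the median of the array and averaged over both dye orientations of a culture, and is called the DOX component here. Of 12844 clones, 7818 were measured on all 4 DT40 arrays and 6488 could be tested. limma called 0 of the 6488 at an adjusted p under 0.05 (0%), and 0 at the wider limit of 0.15, with a smallest adjusted p of 0.711. Without culture B it called 3 clones, all lower, and without culture A none. In RNA of whole cultures, fewer cells that express a gene and less RNA per cell cannot be told apart. At an unadjusted p under 0.05, 229 clones were higher in +DOX cells (3.53% of those tested) and 163 were lower (2.51%).

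The ratios were small. The median over the clones tested was 0.01 on the log2 scale, the quartiles were -0.09 and 0.11, and the median standard error was 0.14. A single clone had a mean beyond 2-fold. The 95% interval lay within 2-fold in either direction for 6430 of the 6488 clones (99.1%), each clone taken on its own. Means beyond 1.5-fold were found for 11 clones upwards and 20 downwards, and both cultures passed 1.5-fold in the same direction for 2 clones upwards and 7 downwards. The p-values measure the spread between the cultures labelled A and B. With 2 cultures, they and the standard errors rest in large part on the spread borrowed from the other pairs and clones.

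The DT40 arrays gave between 63.2% and 67.5% of spots at or above the confidence limit. The other arrays gave between 55.1% and 72.1%, apart from 2 weak DKO-S arrays with 2.13% and 22.7%. The array of culture A with +DOX in Cy3 was the lowest of the 4 DT40 arrays, with 9127 clones measured. Its median intensities were 2026 in Cy3, which held the +DOX RNA, and 459 in Cy5, which held the -DOX RNA, with 539 and 159 on its blank spots.

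The dye recurred between the DT40 arrays more closely than DOX did. The mean of log2(Cy5/Cy3) over both orientations of a culture, in which the DOX term cancels, is called the dye component. Across the 7818 clones, the dye component correlated between cultures A and B with r = 0.56, and the DOX component with r = 0.10. These are descriptions across clones, which share their arrays and are not independent replicates. The SD of the DOX component was 0.23 in culture A and 0.24 in culture B, and that of the dye component was 0.31 and 0.30.

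After turning to +DOX over -DOX, the 2 arrays with +DOX in Cy3 correlated with r = 0.49 and the 2 with +DOX in Cy5 with r = 0.25. Arrays of opposite orientation correlated below 0, with r from -0.38 to -0.25, also within a culture (-0.32 in A and -0.25 in B). Subtracting the whole dye component measured on the DKO-R arrays left the correlations within a culture at -0.30 in A and -0.25 in B. The DT40 arrays had slopes of only 0.43 to 0.69 on that component, so the subtraction took off more than these slopes give. It leaves a reversed remainder that also turns with the orientation, so the part of the dye in these correlations was not tested. The same test that called no clone for DOX called 222 clones for the dye component (3.42% of 6488), 164 of them brighter in Cy5 and 58 brighter in Cy3. The orientation of each array rests on its labels, as no clone with a DOX response fixed by construction was available to check it in DT40. Were one orientation mislabelled, the DOX term would lie in what is called the dye component here, and these arrays alone cannot tell the 2 cases apart.

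**Figure D1:**
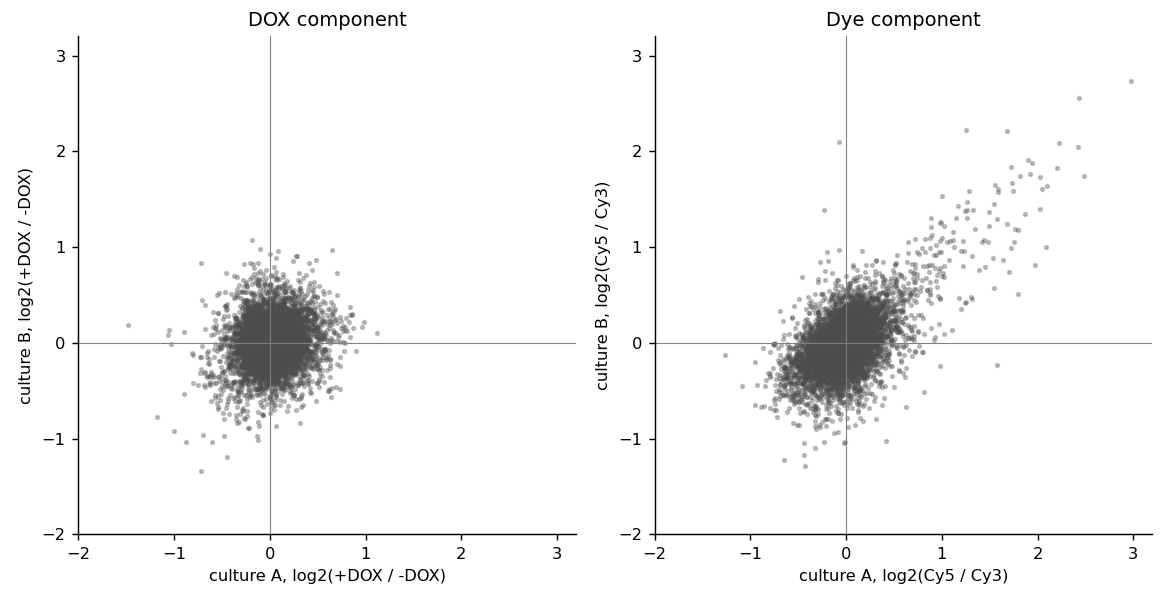
DOX component (left) and dye component (right) of each of the 6488 clones tested, culture A on the x axis and culture B on the y axis, as log2 ratios; each point is a clone. The DOX components form a round cloud about 0, while the dye components stretch along the diagonal to above 2.

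Clones whose 4 arrays all had the same sign were next listed, since a dye effect alone turns the sign with the orientation. There were 458 clones above 0 and 376 below 0 on all 4 arrays, together 834 of the 7818 (10.7%). Clones without a response can also have the same sign on all 4 arrays, so this count is no measure of responding clones. The highest mean of the tested ones belonged to DT40subNB_6E5, by its prefix an EST from a DT40 library, which has no gene name in the files. Its log2 ratios were 1.07 in culture A and 0.79 in culture B with +DOX in Cy3, and 0.32 in A and 0.67 in B with +DOX in Cy5. All 4 lay above 0, as the listing required. The mean was 0.71 ± 0.16 (SE of the fit over all pairs, n = 2 DT40 cultures), and limma's adjusted p was 0.711. In DKO-R the same clone had 0.37 ± 0.16.

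The clone pat.pk0050.h11 followed, with 0.86 in A and 0.71 in B (+DOX in Cy3) and 0.12 in A and 1.01 in B (+DOX in Cy5). Its mean was -0.38 ± 0.14 in DKO-R, against 0.67 ± 0.14 in DT40, and the difference of DKO-R minus DT40, -1.05, did not pass (limma adjusted p = 0.847). Centring by printed block gave a DT40 mean of 0.42.

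The lowest was ChEST266G2, whose log2 ratios were -0.42 in A and -0.97 in B (+DOX in Cy3) and -0.46 in A and -1.42 in B (+DOX in Cy5). Culture B lay lower than culture A in both orientations, the mean was -0.82 ± 0.18 (-0.45 with centring by printed block), and limma's adjusted p was 0.711. The next, ChEST762H11, had -0.25 in A and -1.0 in B (+DOX in Cy3) and -0.71 in A and -0.60 in B (+DOX in Cy5), with a mean of -0.64 ± 0.14 (-0.40 with no confidence filter). The 10 highest clones had means from 0.57 to 0.71 and the 10 lowest from -0.82 to -0.57. Of the 10 highest, 5 came from the DT40 library and 2 from the ChEST library, and of the 10 lowest, 0 and 9. Among all 6488 clones tested, 1063 came from the DT40 library and 3955 from the ChEST library. The listing drew only on the 712 tested clones with the same sign on all 4 arrays, whose split by library was not counted. In DKO-R, 7 of the 10 highest had a mean above 0 and 3 of the 10 lowest a mean below 0, where 3381 of all 6489 clones were above 0.

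**Figure D2:**
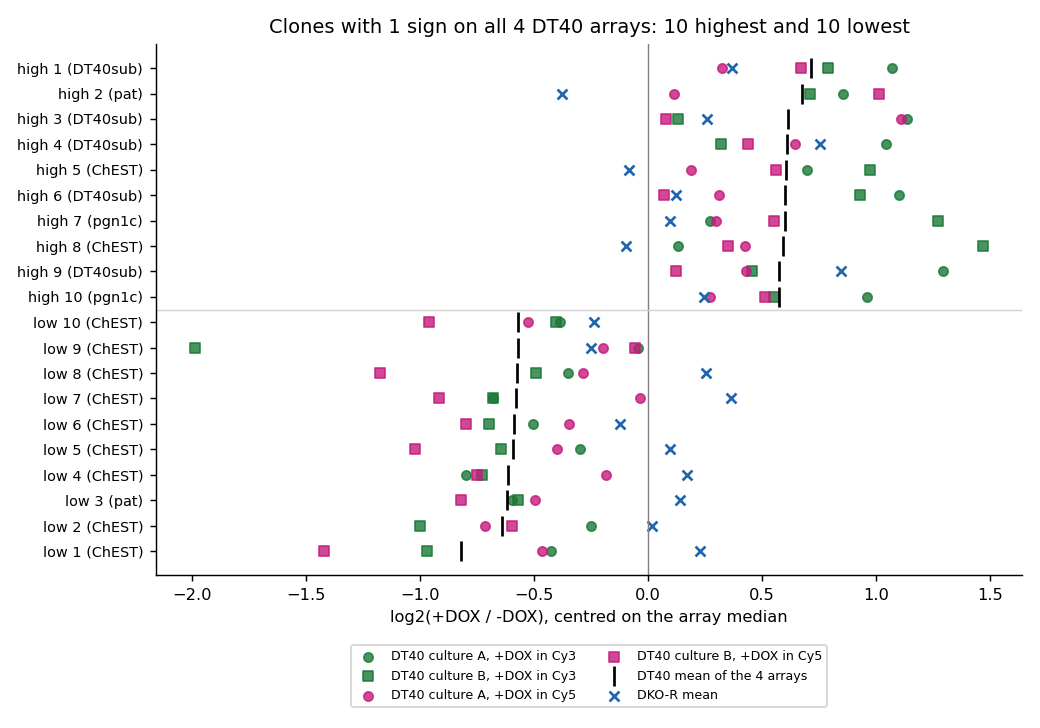
Log2(+DOX/-DOX) of the 10 highest and 10 lowest tested clones with the same sign on all 4 DT40 arrays, on the x axis, 1 row a clone with its EST library in brackets. Circles are culture A and squares culture B, green with +DOX in Cy3 and magenta with +DOX in Cy5; black bars are DT40 means and blue crosses DKO-R means, which spread from -0.38 to 0.85.

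Gene names were taken from the study's list of clones that differed between DKO-R and DKO-S, since the array files give clone names and EST identifiers only. All 47 clones of that list were found by clone name, 42 of them with a gene name, and 44 were tested in DT40. The files gave 28 of the 47 the same EST identifier as the list and 2 another. For the rest they gave none, so those names rest on the clone name alone. The list was chosen on the DKO lines, and it is used here for its names. None of the 44 passed the test, against 0% of all clones. At an unadjusted p under 0.05, 7 were lower and 0 higher in +DOX cells, against 2.51% and 3.53% of all clones. None of the 44 had the same sign on all 4 arrays, against 10.7% of all clones measured on all 4. Their median DOX component was -0.21, against 0.01 for all clones tested, with 31 below 0 and 13 above.

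The listed clones also had large dye components, and the part of the dye in the shift was not tested beyond the values given here. The median dye component of the 44 clones was 1.17 on the log2 scale, against -0.005 for all clones, and 34 of the 44 were among the 222 clones called for dye. By array, the median log2(+DOX/-DOX) of the listed clones was -1.44 in A and -1.04 in B with +DOX in Cy3, and 0.74 in A and 0.87 in B with +DOX in Cy5. The slope of each array's log2(Cy5/Cy3) on the dye component of the DKO-R arrays, over 6484 clones, was 0.69 (A) and 0.56 (B) with +DOX in Cy3, and 0.43 (A) and 0.49 (B) with +DOX in Cy5.

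Of the 25 listed clones whose dye component on the DKO-R arrays was over 1, 23 had a DT40 DOX component below 0, with a median of -0.45, and of the other 19, 8 were below 0, with a median of 0.01. Among clones outside the list with a DKO-R dye component over 1, 33 of 39 were below 0, with a median of -0.30, and within a dye component of 1 on either side, 3068 of 6401 were. When the dye component was scaled to each array and subtracted, an alternative chosen after the data were seen, the median of the 44 listed clones became -0.13, with 29 below 0 and 15 above, and 9 rather than 7 had an unadjusted p under 0.05. RAD54B (-0.82), CKAP4 (-0.62) and NK-lysin (-0.52) were still below -0.5 there.

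**Figure D3:**
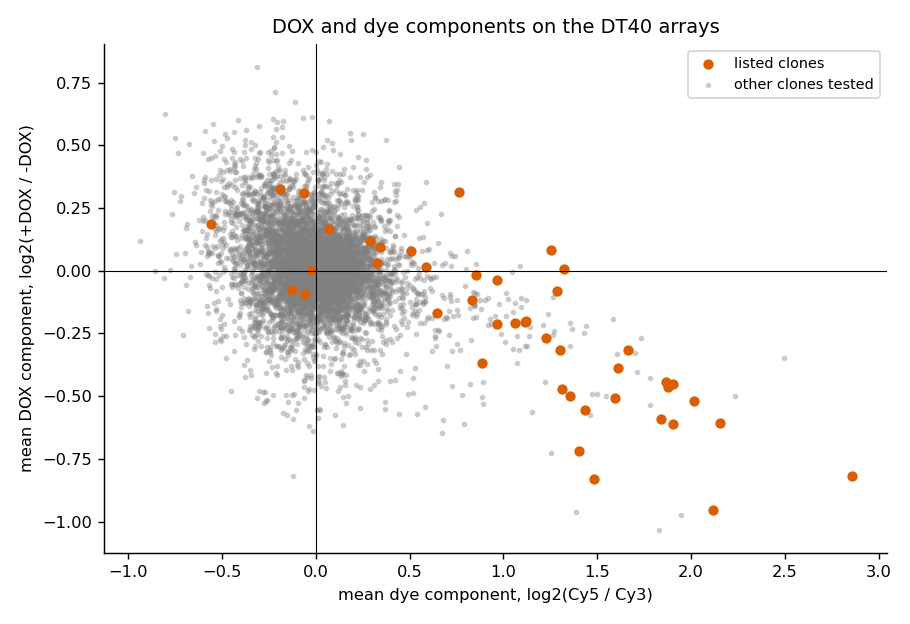
Mean DOX component (y axis) against mean dye component (x axis) of the 6488 clones tested on the DT40 arrays, both log2 ratios; listed clones in orange, all others in grey. Clones with a dye component over 1 lie mostly below 0 on the DOX axis (70 of 73, both values coming from the same 4 arrays).

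Among the signalling clones, 2 of 5 had a mean above 0 and 3 below, with no call. MAP2K3, the kinase that activates p38, had log2 ratios of -0.24 (A) and -0.35 (B) with +DOX in Cy3 and 0.41 (A) and 0.30 (B) with +DOX in Cy5. The signs turned with the orientation, and the mean was 0.03 with a 95% interval from -0.26 to 0.32. NFKBIE, an inhibitor of NF-kappa-B, was the lowest, with -2.77 (A) and -2.75 (B) against 1.68 (A) and 1.42 (B) in the other orientation. Its mean was -0.61 ± 0.38 (limma adjusted p = 0.966) beside a dye component of 2.16. KIDINS220, a membrane scaffold of receptor signalling, was the highest at 0.08 ± 0.23. DUSP1, a phosphatase that inactivates MAP kinases, had -0.27 ± 0.22, with -0.62 in culture A and 0.08 in culture B, and MAP4K4, a kinase upstream of JNK, had -0.45 ± 0.31.

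Of the 8 transcription and nuclear clones, 3 were above 0 and 5 below. The highest were the 2 clones of PNRC1, a coactivator of nuclear receptors. The clone pat.pk0061.e6 had -0.04 (A) and 0.79 (B) with +DOX in Cy3 and 0.06 (A) and 0.44 (B) with +DOX in Cy5, and the clone ChEST358J1 had 0.59 and 0.45, then -0.08 and 0.35. Each had 3 of 4 arrays above 0 and a small dye component (-0.06 and -0.19). Their means were 0.31 ± 0.18 and 0.33 ± 0.52 (limma adjusted p = 0.942 and 0.997). The second had culture means of 0.255 (A) and 0.399 (B), and its SE also holds the spread of the DKO-S pairs. With DT40 and DKO-R pairs only, limma's adjusted p was 0.865 for the first and 0.687 for the second. Centring by printed block gave 0.11 for the first and a confidence of 0.60 or more gave 0.05 for the second. In DKO-R their means were 0.59 ± 0.18 and 0.65 ± 0.52. In DKO-S, where each culture has a weak array, the second had -0.65 ± 0.52 and the first could not be tested. LMO2, an adaptor of haematopoietic transcription complexes, was the lowest of the group at -0.51 ± 0.22, with a dye component of 1.60. CDC73, a subunit of the PAF1 complex, had 0.10 ± 0.14, and NUP133, a nuclear pore protein, had -0.08 ± 0.15, and both turned sign with centring by printed block (-0.11 and 0.04).

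Of the 9 immune clones, 8 had means below 0, with a median of -0.39, and 7 were called for dye. The clone above 0 was CXCR4, the receptor of the chemokine SDF-1. It turned to -0.08 with centring by printed block and had 0.30 in the deposited table. Its log2 ratios were -0.09 (A) and -0.25 (B) with +DOX in Cy3 and 0.16 (A) and 0.65 (B) with +DOX in Cy5. The culture means were 0.04 and 0.20, and the mean of 0.12 had a 95% interval from -0.26 to 0.49. With the channels normalised separately, CXCR4 had log2 intensities of 11.14 (A) and 11.75 (B) in +DOX cells, against 11.12 (A) and 11.53 (B) in -DOX cells. These intensities differed between the cultures by more than between +DOX and -DOX in either of them. The cultures were on different arrays, while +DOX and -DOX of a culture shared theirs, so culture and array cannot be told apart here.

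NK-lysin, an antimicrobial peptide of lymphocytes, was the lowest immune clone, with -2.74 (A) and -2.29 (B) in one orientation and 1.13 (A) and 1.46 (B) in the other, and a mean of -0.61 ± 0.22 (limma adjusted p = 0.794). The chemokine CCL17 had -0.46 ± 0.15 and CD274, the ligand of PD-1, had -0.59 ± 0.27. Their dye components were 1.88 and 1.84, and their DKO-R means were -0.43 and -0.70. The clones of complement C4 (-0.37 ± 0.18), avidin (-0.21 ± 0.16) and gallinacin 1 alpha (-0.17 ± 0.18) had smaller dye components and smaller DOX components.

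In the secretory group, the immunoglobulin J chain, a B cell product that joins secreted antibodies, had -0.04 (A) and 0.08 (B) with +DOX in Cy3 and 0.10 (A) and -0.13 (B) with +DOX in Cy5. Its mean was 0.00 with a 95% interval from -0.35 to 0.36, and its dye component was -0.02. J chain and CXCR4 were the only B cell markers with a named clone, both measured on all 4 arrays, and T cell, macrophage, erythroid and liver markers had none, so the labelled cell type could be checked no further by name. XBP1, a transcription factor of the unfolded protein response, had -1.44 (A) and -1.79 (B), then 0.91 (A) and 1.06 (B), with a mean of -0.31 ± 0.17. CKAP4, a membrane protein of the endoplasmic reticulum, was the lowest at -0.72 ± 0.21 (limma adjusted p = 0.711), with a dye component of 1.41. DDIT3, a stress-induced transcription factor, was measured on all 4 DT40 arrays with culture means of 0.17 in A and -0.28 in B. It was left out of the fit over all pairs for lack of DKO values, and from the DT40 pairs alone its mean was -0.05 ± 0.14 (limma adjusted p = 0.976). SRP54, of the signal recognition particle, had no value for culture B and was not tested.

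Of the endosomal clones, AP1B1, a subunit of the clathrin adaptor AP-1, had a mean of 0.08 ± 0.19, which turned to -0.10 with centring by printed block, -0.11 at a confidence of 0.60 or more and -0.16 in the deposited table. Its log2 ratios were -0.44 (A) and -0.42 (B) in one orientation and 0.69 (A) and 0.49 (B) in the other. CD63, a tetraspanin of late endosomes, had -0.04 ± 0.17. ATP6V0A3, a subunit of the vacuolar proton pump, had -0.50 ± 0.20 (limma adjusted p = 0.794) beside a dye component of 1.36. The files give the clones of AP1B1 and ATP6V0A3 another EST identifier than the list does. Their names rest on the clone name alone, as do those of listed clones without an identifier in the files. CHMP7, of the ESCRT-III family, was measured in culture A only.

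RPL10A, a ribosomal protein, was brighter in Cy3 and gave the reverse pattern, with 0.80 (A) and 0.69 (B) with +DOX in Cy3 and -0.46 (A) and -0.28 (B) with +DOX in Cy5. Its culture means of 0.17 and 0.21 lay close together, and the mean of 0.19 had a 95% interval from -0.12 to 0.49. PSPH, the last enzyme of serine synthesis, had -0.47 ± 0.23 and GAPDH, a glycolytic enzyme, had -0.21 ± 0.24. Of the adhesion and cytoskeletal clones, CAPZB, an actin capping protein, had 0.01 ± 0.17 (-0.06 with centring by printed block). The integrin ITGB5 had -0.32 ± 0.49 (0.03 in the deposited table). Its culture means were -0.355 (A) and -0.275 (B), and its SE also holds the spread of the DKO-S pairs.

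The lowest mean in the list was that of RAD54B, a helicase of recombination repair. Its log2 ratios were -3.37 (A) and -2.77 (B) with +DOX in Cy3 and 1.61 (A) and 0.71 (B) with +DOX in Cy5. The culture means of -0.88 and -1.03 gave -0.95 ± 0.28 (limma adjusted p = 0.711), beside a dye component of 2.12, and centring by printed block gave -0.59. Separate channels put RAD54B at 11.50 (A) and 10.65 (B) in +DOX cells, against 12.40 (A) and 11.65 (B) in -DOX cells. THUMPD2, a THUMP domain protein, had -0.83 ± 0.34 (limma adjusted p = 0.801), with a dye component of 1.49. The anion transporter SLC26A9 had small values on every array, from -0.25 to 0.17, and a mean of -0.09 ± 0.13.

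**Figure D4:**
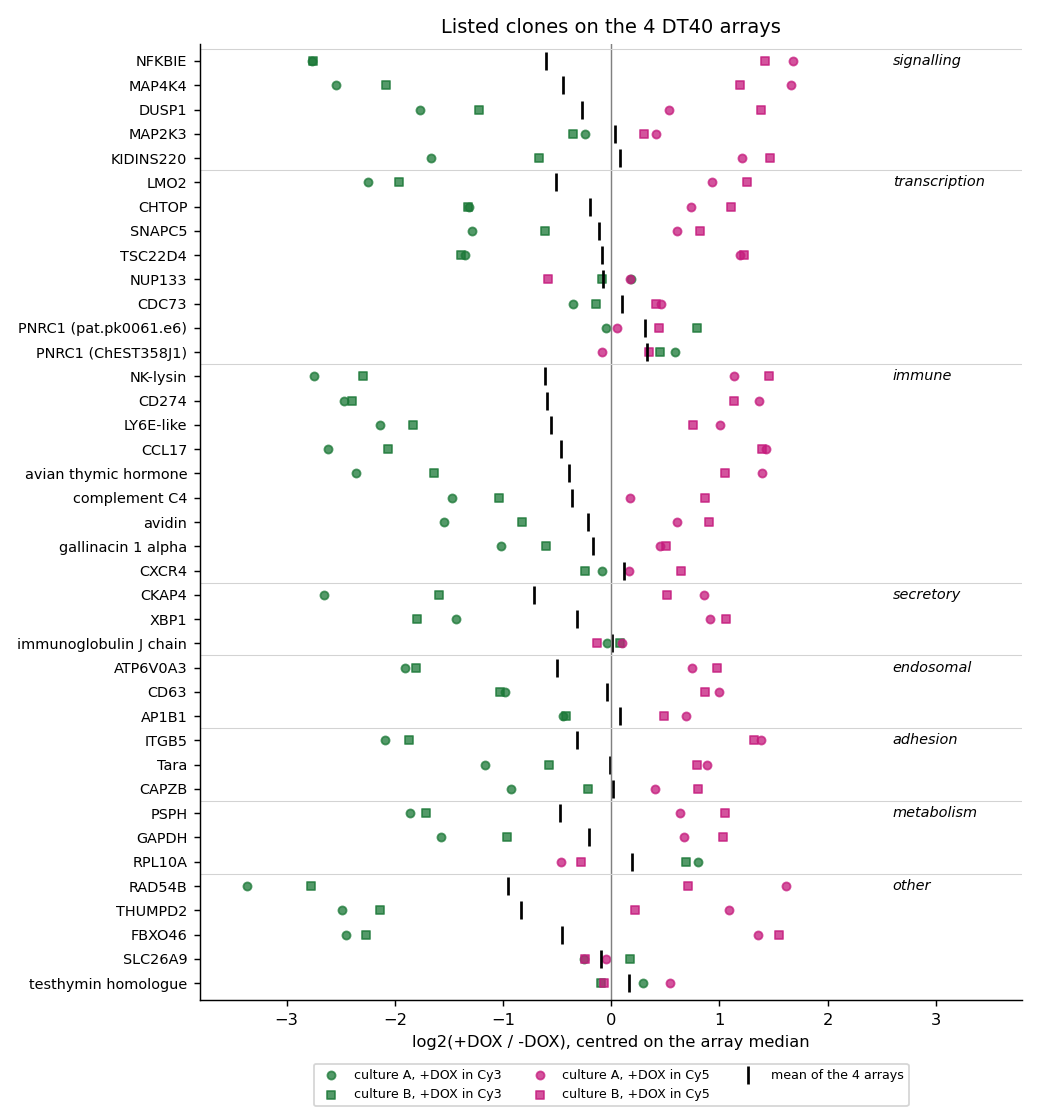
Log2(+DOX/-DOX) of the 39 tested clones with a gene name on the 4 DT40 arrays (x axis), by functional group; circles are culture A, squares culture B, green with +DOX in Cy3, magenta with +DOX in Cy5, and black bars are means. For most clones the green and magenta points lie on opposite sides of 0, as for NFKBIE (-2.77 and -2.75, 1.68 and 1.42).

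Most clones have no gene name, but the prefix of the clone name sorts them into groups, called libraries here. The paper counts more EST libraries on the array than there are prefixes, so a group can pool several. Clones of the DT40 library, whose prefix names the line, lay slightly above 0 with DOX. Of 1063 tested, 676 had a mean above 0 (63.6%), with a median of 0.05, against 51.7% and 0.01 for all clones. At an unadjusted p under 0.05, 74 DT40-library clones were higher in +DOX cells (6.96%, against 3.53% of all clones) and 10 were lower (0.941%, against 2.51%), and none passed the adjusted test. The median by array was 0.03 in A and -0.004 in B with +DOX in Cy3 and 0.05 in A and 0.06 in B with +DOX in Cy5, so 3 of 4 arrays were above 0 and 1 was just below. Centring by printed block gave 40 higher (3.76%) and 4 lower in the DT40 library, against 109 and 76 of all clones.

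The other libraries lay nearer to 0. ChEST clones had a median of 0.00 (49.5% of 3955 above 0), pgn1c clones 0.01 (52.1% of 470), dkfz426 clones 0.02 (53.7% of 201) and pat clones -0.02 (45.8% of 799). The size of the shift in the DT40 library is small beside the standard error of a single clone. It grew with brightness, a measure taken as the mean log2 intensity on the DT40 arrays. In the brightest 25% of clones, 68.3% of 539 DT40-library clones were above 0, against 51.3% of the other 1083, and in the dimmest 25% 51.2% of 80, against 47.4% of the other 1542. With loess within arrays, the median of the DT40 library was 0.04 and 60.6% of its clones were above 0. In DKO-R its median was 0.06, with 646 of 1063 clones above 0, 104 higher and 28 lower at an unadjusted p under 0.05, against a median of 0.01, 3381 above 0, 325 higher and 201 lower among all 6489 clones. Clones of a library share their arrays and are not independent, and the part of brightness in the shift was not tested beyond these values.

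**Figure D5:**
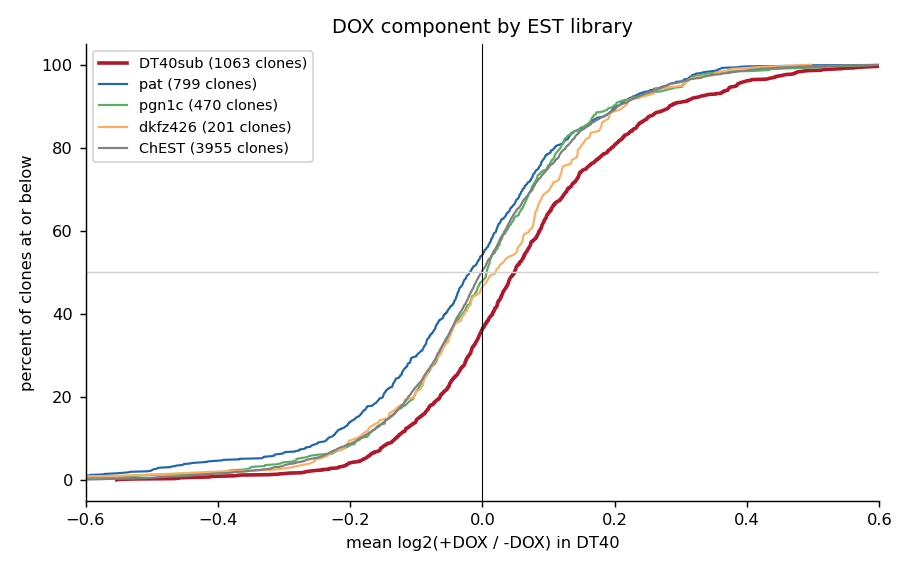
Cumulative percent of tested clones (y axis) by mean log2(+DOX/-DOX) in DT40 (x axis, cut at 0.6 on either side), 1 line an EST library. The line of the DT40 library runs to the right of the others, with a median of 0.05, and that of pat runs to the left, with -0.02.

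The libraries also differed in how often a clone gave a measurable signal in DT40. All 4 arrays measured 85.7% of the 1376 DT40-library clones, against 52.1% of the 9759 ChEST clones. The pat library reached 93.3% and pgn1c 89.8%, and 17.3% of ChEST clones were measured on none of the 4 arrays.

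The DOX response of DT40 was set against that of DKO-R, in which DOX also removes clathrin. For DKO-R minus DT40, limma called 0 of 6484 clones (0%), with a smallest adjusted p of 0.847 and 327 clones at an unadjusted p under 0.05. DKO-R alone had 0 clones called of 6489, with 526 at an unadjusted p under 0.05, against 392 in DT40. Among the named clones, KIDINS220 had a mean of -0.74 ± 0.23 in DKO-R and 0.08 ± 0.23 in DT40, a difference of -0.82 ± 0.33 (limma adjusted p = 0.858). CXCR4 had -0.33 ± 0.16 in DKO-R and 0.12 ± 0.16 in DT40, a difference of -0.45 ± 0.23 (limma adjusted p = 0.858). AP1B1 had -0.52 ± 0.19 in DKO-R and 0.08 ± 0.19 in DT40, which differed by -0.60 ± 0.26 (limma adjusted p = 0.858). The differences of Tara (-0.49) and SNAPC5 (-0.46) lay between those of AP1B1 and CXCR4. The largest difference upwards among the named clones was that of CKAP4, 0.47 ± 0.30 (limma adjusted p = 0.874).

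XBP1 had the same mean of about -0.31 in both lines, with a difference of 0.00 ± 0.24, and a DT40 dye component of 1.30. Other listed clones with a dye component over 1 also had close means, such as NFKBIE (-0.61 in DT40 and -0.59 in DKO-R). The means of CKAP4 (-0.72 and -0.24) and KIDINS220 lay further apart. In both lines the slope on the other line's dye component was larger with +DOX in Cy3 than with +DOX in Cy5 of the same culture. For the DKO-R arrays, taken on the dye component of the DT40 arrays, it was 0.56 (A) and 0.69 (B), against 0.50 (A) and 0.16 (B). Of the 325 clones above 0 in DKO-R at an unadjusted p under 0.05, 209 were above 0 in DT40, with a median of 0.06, and 38 reached that p in the same direction, where 51.7% of all clones were above 0 and 3.53% reached it upwards. Of the 201 clones below 0 in DKO-R, 103 were below 0 in DT40, with a median of 0.00, and 11 reached it, where 2.51% of all clones reached it downwards. Both lines were tested in 1 fit in which a clone has the same standard error for each line. A clone with a small standard error reaches that p more easily in both, so these counts cannot tell a shared response from a shared standard error.

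Against DKO-S, only 164 clones could be tested, because each DKO-S culture has a weak array. On both weak arrays the weak channel held the +DOX RNA. Its median intensity was 82 in A (102 on blank spots) and 87 in B (71 on blank spots). limma called 5 of the 164 clones (3.05%), 1 higher and 4 lower for DKO-S minus DT40. The largest, DT40subNB_13H4, had a mean of -1.40 in DKO-S and 0.51 in DT40 (limma adjusted p = 0.00873). None was called among 6614 clones when the weak arrays were left out and single arrays were fitted with a dye term.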

How the data were processed

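The authors deposited the intensity of every spot in Cy3 and Cy5 from BlueFuse (version 1.1, per the file headers), not normalised, and a spot confidence that is a fraction. Log2 ratios of Cy5 over Cy3 that the authors deposited served as an alternative only. Spots below a confidence of 0.30 were dropped, each array was centred on its median log2 ratio, and repeat spots of an EST clone were pooled by their mean before the dye swaps of a culture were turned and averaged. limma 3.58.1 (R 4.3.3; lmFit, eBayes) fitted 1 mean to each of 4 comparisons over 7 pairs of extracts, with at least 2 residual degrees of freedom and Benjamini-Hochberg adjustment over all clones. The fit was tested on simulated data. The number of arrays limits the precision. The deviations of same-lettered cultures of DT40 and DKO-R correlated with r = 0.00, the same value for A and B by construction. What +DOX and -DOX cells of a letter have in common cancels in these ratios, so a shared batch was not tested. Named were all clones of the study's list, by group, and the 10 highest and 10 lowest clones of 1 sign, of which 2 each are printed. Members and lists were chosen with earlier results of these data known.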

Additional observations from a re-analysis of the deposited data

Results flagged for a closer look

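Of the 4 DT40 arrays, the array of culture A with +DOX in Cy3 stood apart in the share of spots at or above the confidence limit (63.2%) and in the number of clones measured (9127). Chance flags about 1 in 20 such groups of 4, and 2 of 48 were flagged, both on this array.

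Of the 164 clones with values in DKO-S, 5 differed in DOX component between DKO-S and DT40 by the test of the difference itself (limma, adjusted p under 0.05). Each DKO-S culture has a weak array whose weak channel held the +DOX RNA, so a DOX response and a weak channel cannot be told apart in these calls. DKO-S minus DT40 was -1.92 for DT40subNB_13H4, -1.83 for DT40subNB_2F7, -1.34 for pat.pk0025.e3, -1.17 for DT40subNB_5E4 and 0.78 for DT40subNB_3C11. In DT40 itself these clones had means of 0.51, 0.48, 0.10, 0.39 and -0.09.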

How the results depend on the processing

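Under 16 alternatives, 0 clones were called for DOX in DT40 in 15 of them, and 0 of the listed clones in all 16. With no confidence filter or with the deposited table, the fit called 0 clones for dye as well, against 222 in the main fit. As these settings called nothing even for dye, their 0 for DOX says little. Leaving out culture A or B of DT40 gave between 0 and 3 calls, the 3 (all lower) without culture B, and leaving out a culture of either line gave between 0 and 2 for DKO-R minus DT40, which had 0 under every other alternative. With 1 culture left, it is assumed to vary like the other pairs. With culture as a replicate block, 0 clones were called for DOX, against 385 for dye. The dye calls (222 of 6488) became 526 of 6488 at an adjusted p under 0.15. With DT40 pairs alone they became 140 of 7818, and with single arrays 134 of 7818. They became 0 with no confidence filter (12844 clones tested) or with the deposited log2 ratios (12753 clones tested). Without a DT40 culture, 1 culture is left, so those dye calls are not compared with these. The DKO-S minus DT40 calls (5) became 12 at an adjusted p under 0.15, 3 with centring by printed block, and 0 with no confidence filter, confidence of 0.60 or more, the deposited table, single arrays without the weak ones, or separate channels, and ranged from 5 to 210 with a culture of either line left out. The cause was not tested. The median of the listed clones stayed below 0 in all 16 (from -0.34 to -0.08), and the median of the DT40 library above that of the other clones in all 16 (from 0.04 to 0.06). The limit of 0.15, DT40 and DKO-R pairs only, and culture as a replicate block repeat the main estimates, so they could not move these medians. DT40 pairs alone, single arrays and leaving out the dimmest 25% of clones keep each clone's estimate. They change only which clones are tested, so they could hardly move the medians. Of 753 values of single clones, none was called and 45 moved by more than the SD between cultures. Leaving out a DT40 culture cannot move a mean by more than that SD, nor can alternatives that repeat a clone's main estimate. For clones whose cultures lay close together, a small shift counts as a move, so the count does not measure stability.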
